A study of Mus musculus with 12 samples.

Results

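Larp1 knockdown in cultured adult mouse sensory neurons was followed here through 10 genes of the route from glucose to lactate: the neuronal glucose transporter Slc2a3 (GLUT3) and the enzymes Gpi1, Pfkl, Aldoa, Tpi1, Gapdh, Pgk1, Pgam1, Pkm and Ldha. Hexokinase and enolase, which the route also needs, are not among them. The members were chosen by name, as 10 of the 15391 genes in the deposited table, and all 10 passed the filter on low counts that 8773 genes passed. The cells were dorsal root ganglion neurons of mice with the genotype RPL22HA+/+;Advillin-Cre+, labelled as preconditioned, that is, taken after an injury of the sciatic nerve. Every group shares this genotype and injury, so neither an uninjured nor an untagged comparison is part of the values below.

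In RiboTag mice, Cre recombinase switches an HA tag onto the ribosomal protein Rpl22, here in cells that express Advillin, and an HA antibody then recovers tagged ribosomes with the mRNA they hold. The 4 groups were the HA immunoprecipitate (IP) and the input RNA after a control virus (AAV-Control for the IP, AAV-shControl for the input) and the same pair after AAV-shLarp1. Input is RNA of the whole culture, so other cells contribute to it. The labels describe the samples as cultured neurons, while their extraction text speaks of fresh ganglia.

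Each group has 3 columns of estimated counts. Totals were 3126591 to 3177552 per IP column and 564095 to 760140 per input column, and the columns of a group differed by about the sampling noise: a chi-square test gave p below 0.05 for 6.98% to 7.62% of genes with at least 30 counts, and for 3 of 38 combinations of a member and a group. No label names separate cultures, so a group was counted as 1 sample (n = 1) and the 3 columns were summed. Intervals below are 95% intervals and cover counting error only, not the difference between cultures, and no p-value for a condition is given. A call of higher or lower means that the whole interval lies beyond 1.5-fold. Larp1 itself had 147, 141 and 154 counts in the control IP columns and 55, 49 and 45 in the shLarp1 IP columns, a log2 ratio of -1.72 (-2.00 to -1.45), and its input counts were 18 and 8 in all. The neuronal label was checked with 16 sensory neuron markers fixed as a list, all of them present. With the control virus, 11 were called higher in IP than in input, where 23% of all genes tested were, and none lower, where 12.5% were. Of 11 glia markers tested, 2 were called higher (Ngfr and S100b) and 1 lower (Fabp7). Of 7 fibroblast markers, 1 was called higher (Vim) and 1 lower (Fn1). In CPM, summed glia markers stood at 564 in control IP and 582 in control input, and fibroblast markers at 596 and 640. The check thus does not show that RNA of other cells was removed from the IP.

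Glycolysis splits glucose into pyruvate and yields ATP without oxygen. Glucose enters through a transporter, is rearranged and cleaved in the upper steps (Gpi1, Pfkl, Aldoa, Tpi1), and is oxidised and drained of energy in the lower steps (Gapdh, Pgk1, Pgam1, Pkm), after which Ldha turns pyruvate into lactate and restores NAD. Neurons rely on Slc2a3 for uptake, and the enzymes are housekeeping genes of nearly all cells. Larp1 is an RNA-binding protein known for binding mRNAs that begin with a C and a run of pyrimidines, the terminal oligopyrimidine (TOP) start of ribosomal protein mRNAs.

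Because Larp1 is known for its grip on that first stretch, the annotated starts of members on which the results turn are shown here beside 1 ribosomal protein gene. Each line gives 20 bases before the annotated start in lower case and the first 20 bases of the transcript in capitals, 5′ to 3′ on the gene's strand, from RefSeq on GRCm38.p6, a different build from the one behind the counts. Rpl38 was picked as the ribosomal protein gene with a TOP start that had the most control IP counts.
Tpi1 (chr6:124814139-124814178, minus strand): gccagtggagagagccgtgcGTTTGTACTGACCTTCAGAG
Gapdh (chr6:125165754-125165793, minus strand): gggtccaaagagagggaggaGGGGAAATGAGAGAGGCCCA
Aldoa, first of 3 starts (chr7:126800428-126800467, minus strand): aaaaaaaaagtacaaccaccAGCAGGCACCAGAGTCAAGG
Aldoa, second start (chr7:126799235-126799274, minus strand): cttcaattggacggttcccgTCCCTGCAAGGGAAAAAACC
Aldoa, last start (chr7:126799159-126799198, minus strand): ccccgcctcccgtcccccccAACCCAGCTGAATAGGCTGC
Pgk1 (chrX:106187080-106187119, plus strand): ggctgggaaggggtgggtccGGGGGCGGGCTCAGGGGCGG
Pgam1 (chr19:41911851-41911890, plus strand): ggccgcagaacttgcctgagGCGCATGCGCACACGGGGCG
Rpl38 (chr11:114668560-114668599, plus strand): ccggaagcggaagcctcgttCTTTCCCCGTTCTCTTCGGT

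The Rpl38 transcript starts with C and a run of 8 pyrimidines, whereas Tpi1, Gapdh, Pgk1 and Pgam1 start with G and the first and last Aldoa entries with A. The second Aldoa entry begins with pyrimidines, but with T in place of C. The table held starts for 9 of the 10 members, 13 in all, and Slc2a3 had no entry. None of the 9 had a start of C followed by pyrimidines, at least 5 in all, at the annotated base. Over 27025 genes the share with such a start was 3.01%, and among 63 genes named as ribosomal proteins it was 22.2%, a family known for TOP starts, and an annotated start need not be the base used in these cells. The 300 bases around each start (250 before and 50 after) were also searched on both strands for ACGTG, the core letters bound by hypoxia-inducible factors, which also lie inside the CACGTG motif. It was found for 6 of the 9 members (Aldoa, Gapdh, Pgk1, Pgam1, Pkm and Ldha) against 21.8% of all genes, where genes with several starts have more chances to hold it. Ldha had 2 matches on its own strand and 3 on the other around its first start, where the CACGTG it also holds counts on both. Gpi1, Pfkl and Tpi1 had none in these windows.

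Slc2a3 (ENSMUSG00000003153), the first step of the route, had IP and input ratios on opposite sides of 0. Its counts were 220, 230 and 253 in the control IP columns and 179, 150 and 158 with shLarp1, against 155, 130 and 142 in control input and 251, 282 and 274 in shLarp1 input. The columns of the groups did not overlap in either fraction: with shLarp1 the IP columns were all below the control and the input columns all above it. Columns of a group differ by about the sampling noise, so such separation, here and below, adds nothing to the counting intervals. The share of all genes with separate columns was not counted. On the level in CPM after TMM scaling, the order was shLarp1 input at 576 (537 to 617), control input at 349 (317 to 384), control IP at 53.2 (49.3 to 57.2) and shLarp1 IP at 33.1 (30.3 to 36.2), with no overlap between neighbours.

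The log2 ratio of shLarp1 to control was -0.68 (-0.85 to -0.51) in IP and 0.72 (0.55 to 0.89) in input. Neither is called, since each interval reaches inside 1.5-fold, but in input the higher call is made under 2 of 5 scalings. The difference of the 2 log2 ratios, -1.40 (-1.64 to -1.16), is called lower under each of the 5 scalings. A ratio to Gapdh, in which no scaling enters, shows the same contrast: Slc2a3 had 5.29 counts per 100 Gapdh counts in control IP (4.90 to 5.71), 2.81 in shLarp1 IP (2.56 to 3.08), 23.7 in control input (21.3 to 26.3) and 73.8 in shLarp1 input (67.3 to 80.9). Transcript lengths are not in such a ratio, so it is read only between groups. Gapdh itself was lower in shLarp1 input, at a log2 ratio of -0.92, and slightly higher in shLarp1 IP, at 0.23. Part of the contrast in each fraction is thus Gapdh's own.

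**Figure D1:**
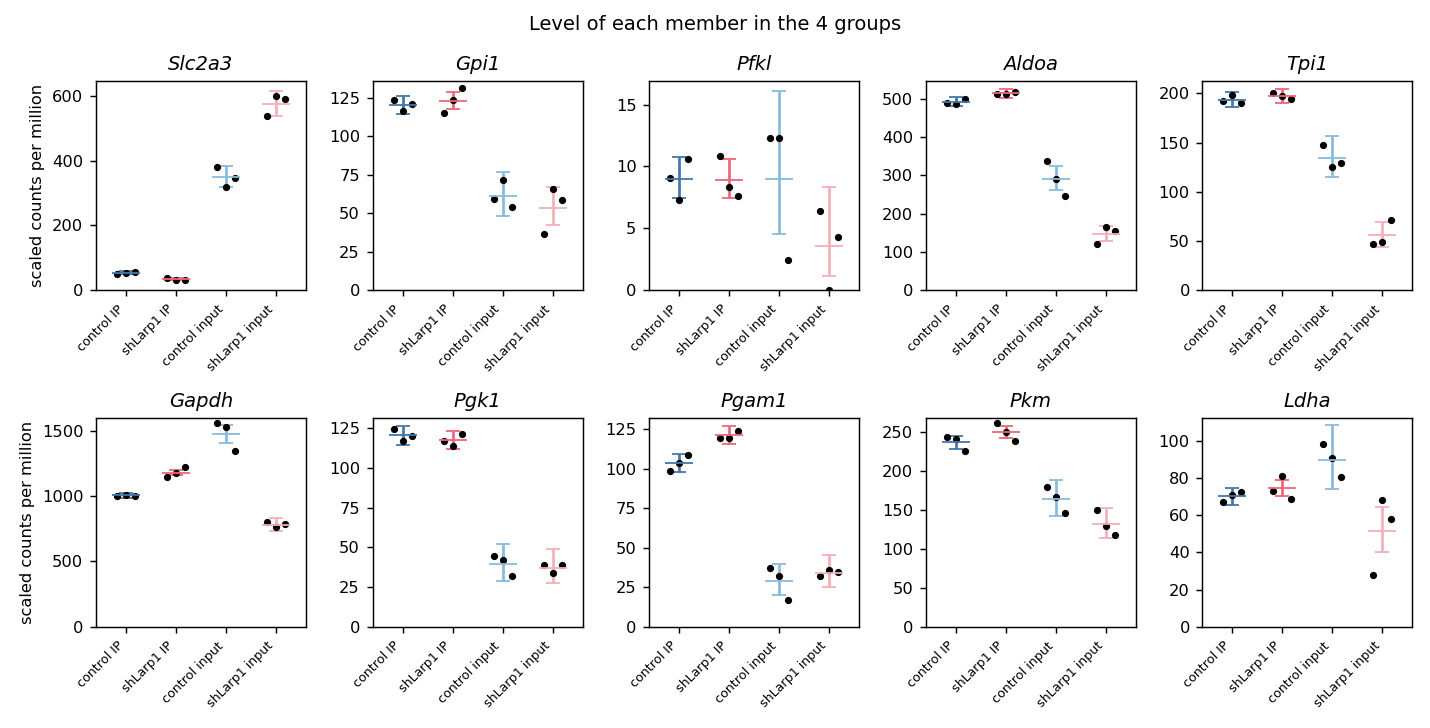
Scaled level of each member (CPM after TMM scaling, vertical axes from 0, 1 panel per gene) in the 4 groups; black points are the 3 columns, horizontal marks the summed level and bars its 95% counting interval. Slc2a3 is the member that stands far higher in input than in IP, and Aldoa, Tpi1, Gapdh and Ldha show lower shLarp1 input columns than control input columns, with no overlap. Such separation adds nothing to the counting intervals, and the share of all genes that show it was not counted.

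In the upper steps, Aldoa and Tpi1 were lower in shLarp1 input while their IP levels after TMM scaling hardly differed. Scaled by total counts instead, their IP log2 ratios were 0.19 (0.15 to 0.24) for Aldoa and 0.16 (0.08 to 0.23) for Tpi1, neither called. Aldoa (ENSMUSG00000030695), which cleaves fructose 1,6-bisphosphate, had 137, 118 and 101 counts in the control input columns and 56, 78 and 71 with shLarp1. Its IP columns held 2155, 2140 and 2214 counts and 2509, 2522 and 2530. The input columns did not overlap and were lower with shLarp1 although the shLarp1 input was sequenced more deeply. The log2 ratio was -0.99 (-1.25 to -0.74) in input, called lower, and 0.06 (0.02 to 0.11) in IP.

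Tpi1 (ENSMUSG00000023456), which interconverts the 3-carbon products of that cleavage, had 60, 51 and 53 counts in control input and 22, 23 and 33 in shLarp1 input, a log2 ratio of -1.27 (-1.68 to -0.87), called lower. In IP it had 849, 873 and 841 counts with the control virus and 981, 970 and 948 with shLarp1, a log2 ratio of 0.03 (-0.05 to 0.10). The input columns were thus separate, while the scaled IP columns overlapped.

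Gpi1 (ENSMUSG00000036427), the isomerase before the committed step, had 24, 29 and 22 counts in control input and 17, 31 and 27 in shLarp1 input. Equal counts correspond to a log2 ratio of -0.20 in input after scaling, and its interval, -0.68 to 0.28, spans no change. Its IP ratio was 0.04 (-0.06 to 0.13). Pfkl (ENSMUSG00000020277), a subunit of the committed enzyme phosphofructokinase, was measured on 11 and 5 input counts only, so its input ratio of -1.33 (-3.21 to 0.31) was not resolved at this depth. Its IP counts, 119 and 131 in all, gave -0.01 (-0.38 to 0.36).

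In the lower steps, Gapdh was the only member called lower in input, and Pgk1, Pgam1 and Pkm had no call. Gapdh (ENSMUSG00000057666), which makes the NADH of the pathway, had 633, 621 and 550 counts in the control input columns and 373, 358 and 363 with shLarp1, with no overlap and a log2 ratio of -0.92 (-1.03 to -0.81), called lower. In IP its columns held 4420, 4428 and 4440 counts and then 5606, 5772 and 5950, again without overlap but in the other direction, at 0.23 (0.20 to 0.26), inside 1.5-fold and not called. Gapdh is often used as a reference gene. Here its level after TMM scaling followed the order control input, shLarp1 IP, control IP and shLarp1 input, with no overlap of columns between neighbours.

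Pgk1 (ENSMUSG00000062070), which makes the first ATP of the pathway, had 18, 17 and 13 input counts with the control virus and 18, 16 and 18 with shLarp1, a log2 ratio of -0.08 (-0.68 to 0.51). Pgam1 (ENSMUSG00000011752), which moves the phosphate of phosphoglycerate, had 15, 13 and 7 and then 15, 17 and 16, a ratio of 0.26 (-0.40 to 0.93). In both genes the input columns overlapped, and the intervals still allow a change of 1.5-fold. The IP ratios were -0.04 (-0.14 to 0.06) for Pgk1 and 0.23 (0.12 to 0.33) for Pgam1.

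Pkm (ENSMUSG00000032294), the pyruvate kinase of neurons and dividing cells, had 73, 68 and 60 counts in control input and 70, 61 and 55 in shLarp1 input, a log2 ratio of -0.31 (-0.60 to -0.01), not called. Its M1 and M2 transcripts cannot be told apart in a table of genes. In IP the ratio was 0.08 (0.01 to 0.15). Ldha (ENSMUSG00000063229) had 40, 37 and 33 and then 13, 32 and 27 input counts, a ratio of -0.81 (-1.26 to -0.37), not called. Its input columns did not overlap, and the first shLarp1 column was the lowest. Without that column the ratio was -0.50 with the TMM reference kept, and -0.29 with the reference that TMM then takes. Its IP ratio was 0.09 (-0.04 to 0.21).

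**Figure D2:**
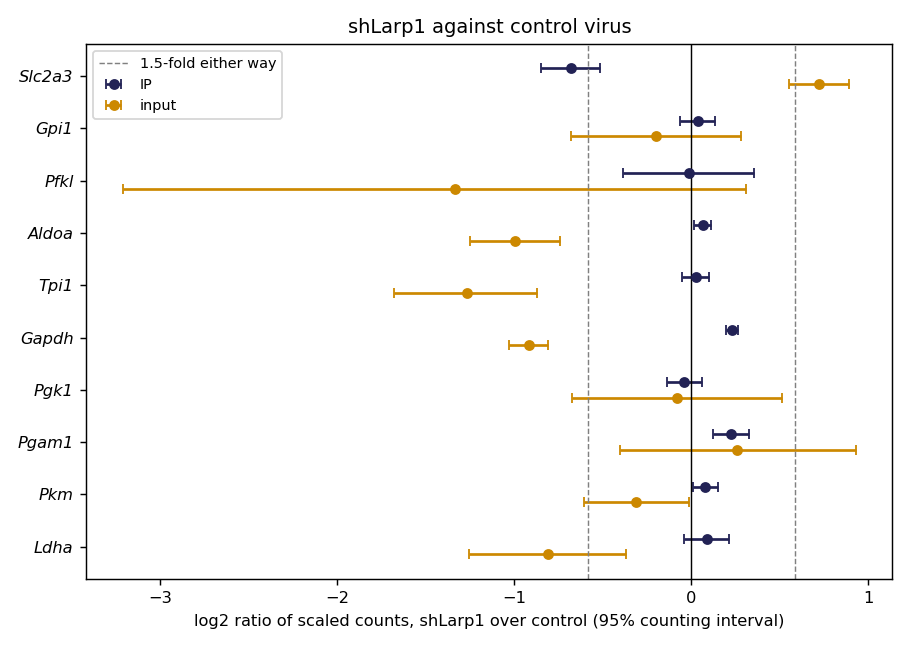
Log2 ratio of shLarp1 to control (horizontal axis) for each member in IP (dark points) and input (orange points), with 95% counting intervals; dashed lines mark 1.5-fold either way. The 9 enzymes lie between -0.04 and 0.23 in IP, while in input Aldoa, Tpi1 and Gapdh lie wholly below the lower line and Slc2a3 reaches across the upper line.

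Counted over the members, none was called in IP, where 0.719% of 8766 genes tested were called higher and 4.4% lower. In input, 3 of 10 were called lower against 1.01% of 7588 genes, and none higher against 0.171%. A call needs depth, and only 2131 genes had at least 30 counts in control input and 2136 in shLarp1 input. The called Tpi1, Aldoa and Gapdh had 164, 356 and 1804 control input counts. The shares of all genes, here and below, are thus not matched for depth. The difference of the log2 ratios between fractions was called higher for Tpi1 at 1.29 (0.89 to 1.69), Gapdh at 1.15 (1.04 to 1.26) and Aldoa at 1.06 (0.80 to 1.31), and lower for Slc2a3, against 1.39% of 7581 genes called higher and 5.58% lower. Ldha, at 0.89 (0.45 to 1.34), was not called. The members' median log2 ratio was 0.05 in IP, where that of all genes was -0.08, and -0.56 in input, where that of all genes was -0.14.

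The enzymes did not differ uniformly, and pairs of members compared without any scaling show where. In input, the difference between 2 members' log2 ratios had an interval that left out 0 in 14 of 36 pairs of enzymes. This rule is weaker than a call beyond 1.5-fold, and the pairs share genes. Pairs of other genes were not counted, so the counts of pairs describe the members without a background. Aldoa, Tpi1 and Gapdh each differed from each of Gpi1, Pgk1, Pgam1 and Pkm, and Ldha differed from Pgk1 and Pgam1. The widest of these was Tpi1 against Pgam1, at -1.52 (-2.25 to -0.78). Among Aldoa, Tpi1, Gapdh and Ldha no pair had such an interval, which does not show that they moved alike. Slc2a3 differed from 8 of the 9 enzymes in input, all but Pgam1, and from 9 of 9 in IP. In IP, Gapdh and Pgam1 made up the differences among enzymes, 11 of 36 pairs, each being above the other gene of its pair, by at most 0.27.

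The input calls depend on how the libraries are scaled, which shifts the ratios of all members by the same amount. Tpi1 and Gapdh were called lower under 5 of 5 scalings, Aldoa under 4 and Ldha under 1, that by total counts. With DESeq2 size factors the Aldoa ratio was -0.78 (-1.04 to -0.53). Leaving out 1 input column also makes TMM scaling take another reference column, from the IP in place of the input. The ratios over the 12 columns left out in turn were then -1.01 to -0.65 for Aldoa, -1.29 to -0.94 for Tpi1 and -0.93 to -0.66 for Gapdh. None of the 3 was called without control input column 1 or without shLarp1 input column 2. Tpi1 alone was called lower without control input column 2 or shLarp1 input column 3, Gapdh alone without shLarp1 input column 1, and all 3 without control input column 3. Slc2a3 was called higher in each of these 6 cases. The called difference between fractions was lost for Aldoa without control input column 1 or shLarp1 input column 1, and for none of the other 3 genes. With the reference held as before, an alternative added after seeing the data, the 3 calls were kept in every case but 1, where Aldoa was lost without shLarp1 input column 1. Control input column 1 is that reference and could not be left out this way.

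**Figure D3:**
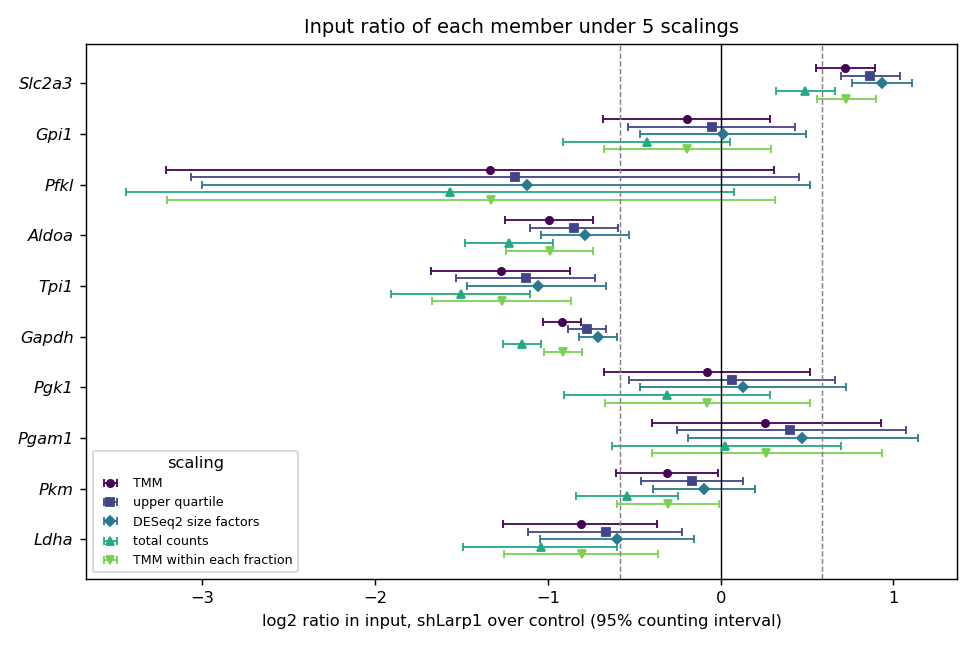
Log2 ratio of shLarp1 to control in input (horizontal axis) for each member under 5 scalings of the libraries, with 95% counting intervals; dashed lines mark 1.5-fold either way. A scaling shifts all members together: Gapdh runs from -1.15 with total counts to -0.71 with DESeq2 size factors, and Slc2a3 from 0.49 to 0.93.

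The summed level of sensory neuron markers was also lower in shLarp1 input, through 1 marker for the most part. The summed scaled level of the 16 markers was 2153 CPM in control input and 1200 in shLarp1 input, against 5256 and 5473 in IP, and that of the 9 enzymes was 2294 and 1295 in input, against 2351 and 2586 in IP. One marker, Uchl1, a deubiquitinase abundant in neurons, holds most of the input sum, with 1772 and 935 counts. It was the only marker of the 16 called lower there. Without a call, Tubb3 at -0.82 (-1.11 to -0.53) and Calca at -0.50 (-0.75 to -0.26) also had input intervals wholly below 0. Other markers rest on few input counts, such as Scn9a on 3 and 1. The median log2 ratio of the 16 markers was -0.21, with 5 above and 11 below 0, against -0.81 for the 9 enzymes and -0.14 for all genes. In RNA of a whole culture, fewer cells of a type and less RNA per cell cannot be told apart. Markers of Schwann cells and satellite glia summed to 582 and 609 CPM in input, and those of fibroblasts to 640 and 722. The 7 macrophage markers in the table summed to 118 and 67, and none of these lists had a member called in input. The part of these cells in the enzyme result was not tested.

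Set directly against the markers, with no scaling, the 9 enzymes had 107 counts per 100 marker counts in control input (101.0 to 112) and 108 in shLarp1 input (100.9 to 115). The summed enzymes and the summed markers were thus lower in nearly the same proportion. Without Uchl1 the same ratio was 326 (302 to 353) and 243 (223 to 265), so that against the other 15 markers the enzymes were lower with shLarp1. Most enzyme counts in input are Gapdh. Without Gapdh, and without Uchl1, the input ratio for the other 8 enzymes was 116 (106 to 128) and 96.5 (87.0 to 107). The overlap of these intervals does not show that the ratios are alike. With Uchl1 kept, the ratio for these 8 was 38.0 (35.3 to 40.9) and 42.9 (39.2 to 46.8). In IP the ratio without Uchl1 was 80.3 (79.1 to 81.5) with the control virus and 94.8 (93.5 to 96.1) with shLarp1.

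**Figure D4:**
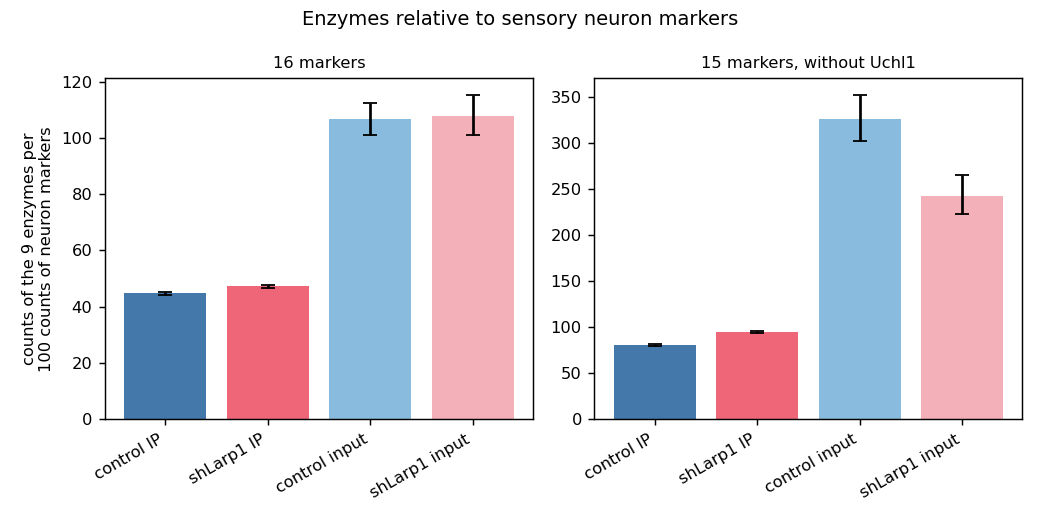
Counts of the 9 enzymes per 100 counts of sensory neuron markers (vertical axes from 0) in the 4 groups, with all 16 markers on the left and without Uchl1 on the right; bars are summed columns and whiskers 95% counting intervals. The input bars stand at 107 and 108 with all markers and at 326 and 243 without Uchl1.

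The IP and the input were next set against each other. Input holds RNA of other cells too, so recovery with tagged ribosomes and the cells that express a gene cannot be told apart in these ratios. These ratios share their groups with the knockdown ratios above and are not independent of them. With the control virus 4 enzymes were called higher in IP: Pgam1 at a log2 ratio of 1.85 (1.37 to 2.38), Pgk1 at 1.62 (1.20 to 2.06), Gpi1 at 0.97 (0.64 to 1.32) and Aldoa at 0.76 (0.60 to 0.91), where 23% of 8773 genes were called higher. Without control input column 3 the calls of Gpi1 and Aldoa were lost. Tpi1 and Pkm, both at 0.53, Pfkl at 0.00, Ldha at -0.36 and Gapdh at -0.56 (-0.63 to -0.48) were not called. The sign of 3 of these depended on the scaling, from upper-quartile factors to total counts: Gapdh ran from -1.04 to 0.41, Ldha from -0.84 to 0.61 and Pfkl from -0.49 to 0.97.

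With shLarp1, 6 enzymes were called higher in IP, where 25.9% of 8771 genes were. Pgam1 at 1.82 and Pgk1 at 1.66 were close to their values with the control virus, while Tpi1 at 1.83 and Aldoa at 1.81 stood above theirs, as their called differences between fractions restate. Gpi1 at 1.20 and Pkm at 0.92 (0.70 to 1.14) were the others, and Gapdh at 0.59, Ldha at 0.54 and Pfkl at 1.32 (0.06 to 2.97) were not called. With upper-quartile factors the calls of Gpi1 and Aldoa with the control virus and of Gpi1 and Pkm with shLarp1 were lost. The Pkm call was also lost without shLarp1 input column 2 or 3, and the Gpi1 call without column 1.

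Slc2a3 was called lower in IP with both viruses, at -2.72 (-2.89 to -2.54) and -4.12 (-4.28 to -3.96), where 12.5% and 13.1% of genes were. Only 380 of 7393 genes with counts in both fractions had a lower ratio with the control virus, and 237 of 7416 with shLarp1. These calls were made under each of the 4 scalings that compare fractions, with ratios of -3.20 to -1.75 with the control virus.

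**Figure D5:**
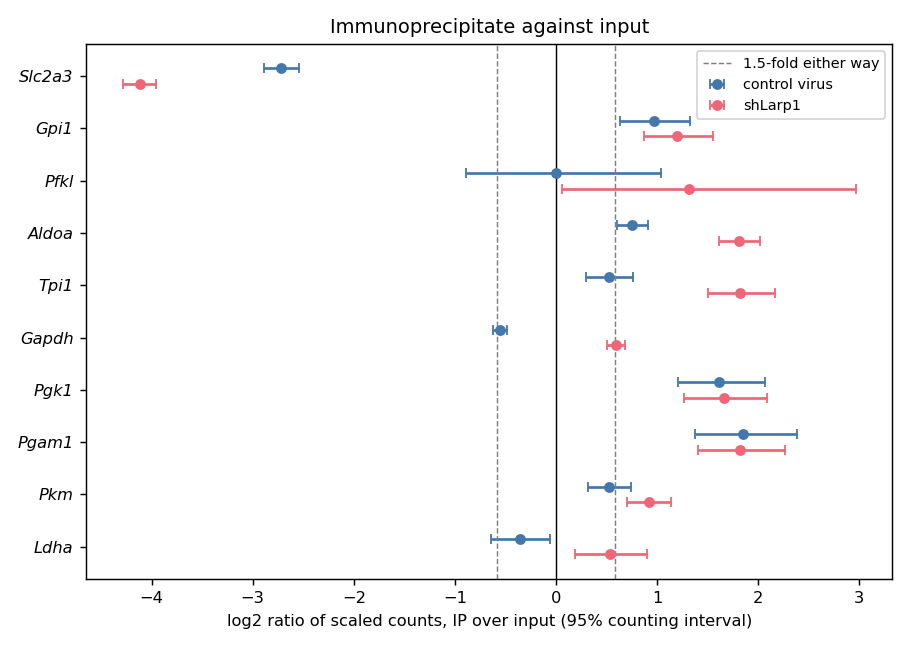
Log2 ratio of IP to input (horizontal axis) for each member with the control virus (blue) and with shLarp1 (red), with 95% counting intervals; dashed lines mark 1.5-fold either way. Slc2a3 lies far to the left with both viruses, Pgk1 and Pgam1 hold their place near 1.6 to 1.9, and Aldoa, Tpi1 and Gapdh stand further right with shLarp1.

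The other glucose and lactate transporters and the isozymes came from a list of 29 glycolysis genes, of which 23 were in the table and 20 passed the filter. Slc2a1 (GLUT1), a widely expressed transporter known from endothelium and glia, was unlike Slc2a3. It had 272 and 320 counts in the IPs and 8 and 9 in the inputs, an IP to input log2 ratio of 1.65 with the control virus. The neuron-enriched enolase Eno2 stood at 1.82 on the same measure, on 1072 IP and 28 input counts, and the platelet-type phosphofructokinase Pfkp at 2.54, on 945 and 15. Pfkm had 119 and 86 IP counts and 2 and 0 input counts, a ratio with shLarp1 of at least 2.73-fold higher in IP, with 3 counts for the whole group as the floor.

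In the knockdown comparison, 3 of the 20 were called lower in input, all of them members, where 1.01% of all genes tested were. In IP 1 was called higher, where 0.719% were, again shares not matched for depth. That gene was Slc16a3 (MCT4), an exporter of lactate, whose IP columns held 6, 7 and 8 counts with the control virus and 18, 17 and 24 with shLarp1, a log2 ratio of 1.34 (0.60 to 2.13) on few counts. Slc16a1 (MCT1) had 125 and 140 IP counts. Slc16a7 (MCT2), the monocarboxylate transporter known from neurons, did not pass the filter and had 27 and 4 IP counts.

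Among the isozymes, hexokinase Hk1, which traps glucose in the cell, had 52 and 32 input counts and 745 and 859 IP counts. Eno1 had 149 and 99 input counts, Eno2 28 and 22, and Ldhb, the heart-type lactate dehydrogenase subunit, 36 and 23. None of these was called in input. Hk2, the inducible hexokinase, had 10 and 29 IP counts and did not pass the filter, and Aldoc had 57 and 104 IP counts with no call. Of the 17 listed genes with counts in both inputs, 14 had a log2 ratio below 0, as did 4079 of 7249 genes over the whole table. The 17 include the 10 members, of which 8 were below 0, so this count largely restates the members.

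The routes that branch off or follow were taken from 6 further lists, whose calls stand against the same shares of all genes (1.01% lower in input and 0.719% higher in IP). These shares are not matched for depth. In the pentose phosphate pathway, with 9 genes tested, Taldo1 (transaldolase) was called lower in input at -0.91 (-1.21 to -0.60), on 237 and 145 counts. H6pd, the hexose-6-phosphate dehydrogenase of the endoplasmic reticulum, was called higher in IP at 1.46 (0.67 to 2.31), on 18 and 55 counts. In the citric acid cycle, with 16 genes tested, Sdhd (a membrane anchor of succinate dehydrogenase) was called lower in input at -1.38 (-2.18 to -0.63), on 50 and 22 counts. Both Taldo1 and Sdhd were also called for the difference between fractions, at 0.97 and 1.55.

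No gene was called in either knockdown comparison among 15 regulators of glycolysis, such as the oxygen-regulated factor Hif1a, Pfkfb3 and Ndrg1, or among the pyruvate dehydrogenase genes, the NADH shuttles and the genes of glycogen and hexose entry. The malate dehydrogenases that link NADH to mitochondria had low input values without a call: Mdh1 at -1.10 (-1.64 to -0.58), on 90 and 48 counts, and Mdh2 at -0.84 (-1.21 to -0.47), on 162 and 104. The median of the 6 shuttle genes tested in input was -0.94 and that of the 11 glycogen and hexose genes 0.03.

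Slc2a3 was not alone in its place far below the enzymes in the IP to input ratio. Among the genes of these lists, Gys1 (glycogen synthase) at -3.09, Pgd (phosphogluconate dehydrogenase) at -2.88, Dld (the shared dihydrolipoamide dehydrogenase) at -2.72, Mlxip (a glucose-sensing transcription factor) at -2.47 and Suclg1 (succinyl-CoA ligase) at -1.66 were called lower with the control virus, and each was called lower with shLarp1 too. Of all genes tested, 12.5% were called lower with the control virus and 13.1% with shLarp1. By list these were 1 of 15 regulators and, of genes tested, 1 of 9 pentose phosphate, 1 of 9 pyruvate dehydrogenase and 1 of 16 citric acid cycle genes. The glycogen and hexose list had 2 of 11 and the shuttles 0 of 6. With the control virus, 1, 1, 1, 2, 2 and 2 genes of these lists, in that order, were called higher, where 23% of all genes were. Gys1 and Dld were further called lower for the difference between fractions, at -1.05 and -1.06, where 5.58% of all genes tested were. Each had an IP log2 ratio below 0 and an input log2 ratio above 0, as in Slc2a3. For Dld the counts were 982 and 777 in IP and 596 and 1014 in input. Pgd, by contrast, stood at 0.17 in both fractions.

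Over the 4 groups, the genes whose centred log2 levels lay nearest to Slc2a3 among 1073 genes with at least 100 counts in every group were Hp1bp3, Gm49359, Ahrr, Dcbld1 and Btbd7, at Euclidean distances of 0.098 to 0.163. Hp1bp3, a chromatin protein, had 2363 and 1661 IP counts and 1533 and 2639 input counts. Those nearest to Gapdh were Atp6v0c (a subunit of the vacuolar proton pump), Prdx2 (a peroxidase), Atp5c1 (a subunit of mitochondrial ATP synthase), Btf3 and Slc25a4 (the ADP/ATP carrier), at 0.169 to 0.238. Atp6v0c had 7278 and 8897 IP counts and 932 and 509 input counts, and its input log2 ratio was -1.07 (-1.23 to -0.91). The profiles span only 4 groups, which the genes share.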

How the data were processed

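RNA was measured in 12 columns of cultured mouse sensory neurons (4 groups of 3), with a nanopore cDNA-PCR kit without molecular identifiers, per the labels' protocols. The deposited values are estimated counts, whole numbers for each gene and unscaled. Per the submitters' processing notes, the authors' tools included Salmon and minimap2 and the build was GRCm39 (mm39), with no version, annotation or strand setting stated in those sources. Reads of overlapping genes or near-identical copies cannot be told apart, and glycolysis enzymes have many: RefSeq names 13 pseudogenes after members, and Eno1b, a copy of Eno1, is in the table. Symbols were matched by identifier for 13711 of 15391 genes.

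Columns were summed per group, since they differed by about the sampling noise. Genes were filtered with filterByExpr (minimum count 10) and scaled by TMM in edgeR 4.0.16 (R 4.3.3). Ratios carry exact (Clopper-Pearson) intervals at 95%. Differences between fractions add 0.5 counts per group and use a normal interval. Calls need the interval beyond 1.5-fold. The rule was tested on simulated counts that held counting error only, so that test says nothing of variation between cultures. The members, gene lists and tests were chosen with earlier results of these data known. Named genes were all members, their isozymes and transporters, called genes of the lists and up to 4 per further list, and the 5 nearest profiles to Gapdh and Slc2a3. DESeq2 1.42.0, other scalings, left-out columns, thresholds and columns as replicates were alternatives. Starts and motifs came from RefSeq (GRCm38.p6). The ratios to marker counts and the promoter search were added after values were seen. One gene of the lists is not reported here.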

Additional observations from a re-analysis of the deposited data

Results flagged for a closer look

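For 4 members the response to shLarp1 differed between the fractions, as the interval of the difference (IP minus input, log2) lay wholly beyond 1.5-fold. Of all genes tested, 1.39% were called higher on this measure and 5.58% lower. The difference was -1.40 for Slc2a3, with a log2 ratio of -0.68 in IP and 0.72 in input, neither called. It was 1.06 for Aldoa, 1.29 for Tpi1 and 1.15 for Gapdh. These intervals cover counting error of 1 sample per group, so no difference between cultures was tested.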

How the results depend on the processing

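The counts of members called were 0 in IP, 3 in input, 4 for the difference between fractions and 5 and 7 for IP over input. Of all genes tested, 0.719% were called higher and 4.4% lower in IP, and 0.171% and 1.01% in input. For the difference the shares were 1.39% and 5.58%. For IP over input they were 23% and 12.5% with the control virus, and 25.9% and 13.1% with shLarp1. With the lower alternative threshold the counts of members called were 1 in IP (Slc2a3) and 5 in input, where 14.4% and 6.35% of all genes tested were called. With 2-fold they were 0 in input, 2 for the difference and 3 for IP over input with the control virus, against 0.25%, 1.57% and 25.3% of all genes. Taking the columns as replicates, edgeR's quasi-likelihood test called 3 in IP, 5 in input and 8 for IP over input with the control virus at an adjusted p under 0.05, where it called 27.7%, 8.88% and 55.4% of all genes. DESeq2's Wald test gave the same counts, against 21.4%, 19.4% and 52.3% of the genes to which it gave an adjusted p, and so did a fit with the replicate number as a block, with 3, 5 and 8 against 26.3%, 8.59% and 54.4%. The columns share only a number, so it is no paired design. Leaving out 1 column gave 1 to 4 calls in input and 3 to 5 for IP over input with the control virus, where a shLarp1 IP column as TMM reference also gave 3, as did leaving out control input column 3 with the reference kept. The cause of these shifts in calls was not tested. Of 1580 values of single members under alternatives, 1427 stayed within the reported interval, 153 left it and none with a call changed sign. Depth limits Pfkl in input most. No p-value or interval here speaks for separate cultures.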
